A study of Mus musculus with 12 samples.

Results

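Genes of the immature neuron's cytoskeleton and growth cone were examined in maps of N6-methyladenosine (m6A) from mouse hippocampus. The 6 genes were the tubulin genes Tubb2b, Tubb3 and Tuba1a, the growth-cone genes Basp1 and Gap43, and the surface protein gene Cd24a. Their m6A peaks were taken as all peaks of the deposited lists that overlap 6 fixed windows of the mouse build mm9. The windows held 28 of 148097 peaks, 12 in the 6-week lists and 16 in the 2-week lists. Peaks sharing at least 1 bp across lists were merged, and the 28 peaks formed 14 of the 70674 merged regions. The members were thus selected on measured values, since each peak had passed a threshold on its enrichment over control. The genes were also chosen with the age changes of input and IP tags in these libraries known, so the age differences given here are descriptions and carry no test.

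Each age, 6 weeks and 2 weeks, was represented by 2 m6A-IP libraries from poly(A)+ RNA of fresh hippocampus, and the mice were C57BL/6 males of wild-type genotype. In m6A-IP, RNA fragments that an m6A antibody captures are sequenced, and places with more tags than in a control are called as peaks. The lists do not name the library behind their control column. It is taken here to be the unselected poly(A)+ fragments (the input) of the same age, and all input levels below, with their age differences, rest on that reading. Of the 12 samples that the labels describe, the input samples' own files and the adult samples (8 to 12 weeks, Fto knockout and wild type) were not analysed here. Replicates 1 and 2 of an age are called biological in the labels, but no animal is named, so the spread between them may be partly technical.

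m6A is written on nascent messenger RNA by a methyltransferase complex built around METTL3 and METTL14, can be removed by the demethylases FTO and ALKBH5, and is read by proteins of the YTH family that affect decay and translation of the RNA. It lies often near stop codons and in long exons. Young neurons build axons and dendrites from microtubules, polymers of alpha- and beta-tubulin, and steer them by growth cones, whose membrane and actin are organised by proteins such as BASP1 and GAP43. In the hippocampus such cells are common in the first weeks after birth, when the dentate gyrus is still being filled, and later become restricted to the adult neurogenic zone.

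The 6-week lists held 33239 and 36494 peaks in replicates 1 and 2, and the 2-week lists 39259 and 39105. IP depth was 16.1 and 16.5 M tags (M, mega) at 6 weeks and 23.4 and 23.0 M at 2 weeks, and the controls had 15.8 and 11.7 M in the 6-week lists, against 29.3 and 16.8 M in the 2-week lists. Depth and age cannot be told apart in this design. A weak peak is more easily called in a deeper library, so absence from a list says that no peak passed the threshold there, not that the RNA is unmethylated. Levels are given as tags per 10 M tags of the library, over the 100 bp of a peak. In such bulk tissue, fewer cells of a type and less RNA per cell cannot be told apart. The files pair no peak with a gene and no gene annotation on mm9 was used here, so the exon, intron or UTR of a peak is not given, and the markers of hippocampal cell types and the other tubulin and growth-cone genes were not tested.

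No sequence of the peaks themselves was used. The RefSeq promoter table (build GRCm38.p6) held an entry for 3 of the 6 genes, Tubb3, Tuba1a and Basp1. Those of Basp1 and Tuba1a are printed because both genes had peaks at both ages with lower control levels at 6 weeks. Each is the 250 bases before the annotated start, 5′ to 3′ on the gene's strand, with the motifs TATAA and GGGCGG of either strand in capitals. The Basp1 stretch is chr15:25413765-25414014 and that of Tuba1a chr15:98953502-98953751, both on the minus strand of GRCm38.p6.
Basp1: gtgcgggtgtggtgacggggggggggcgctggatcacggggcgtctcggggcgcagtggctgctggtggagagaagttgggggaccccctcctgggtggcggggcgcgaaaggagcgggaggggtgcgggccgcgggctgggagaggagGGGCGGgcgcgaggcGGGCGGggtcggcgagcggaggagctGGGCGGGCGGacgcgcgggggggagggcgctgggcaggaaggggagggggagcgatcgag
Tuba1a: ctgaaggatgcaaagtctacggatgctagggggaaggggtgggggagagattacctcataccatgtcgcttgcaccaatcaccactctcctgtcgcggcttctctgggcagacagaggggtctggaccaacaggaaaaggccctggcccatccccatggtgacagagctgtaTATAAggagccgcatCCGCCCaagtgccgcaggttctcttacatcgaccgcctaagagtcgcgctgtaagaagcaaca
The Basp1 stretch was 78.8% G and C, held GGGCGG 4 times, with 2 of these overlapping, and did not hold TATAA. The Tuba1a stretch was 56.8% G and C and held each motif once. Over all 32851 promoter entries, 32.7% held GGGCGG and 22.8% held TATAA in the same 250 bases. A match describes letters only, and these coordinates are not those of the peaks.

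The windows differed in how many peaks they held and how often the same place was called. Basp1 had 6 of the 14 regions, Gap43 had 3, Cd24a had 2, and Tubb2b, Tubb3 and Tuba1a had 1 each. Of the 14 regions, 3 were called in all 4 libraries (1 each in Tubb2b, Basp1 and Cd24a), 1 in 3 libraries, 3 in 2 libraries and 7 in a single library. Over all merged regions, 14.4% were called in all 4 lists and 58.6% in a single list. No peak of any list lay within 3 kb outside a window, the nearest being 3149 bp above the Cd24a window in 2-week replicate 2.

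Peaks on these genes were often among the most heavily tagged of their lists. By IP tags, 14 of the 28 peaks stood in the top 1% of their own list, and all 14 lay in Tubb2b or Basp1. Enrichment was not correspondingly high: the authors' fold over control ran from 3.01 to 26.25, and it was under 3.5 in 8 of the 28 peaks (28.6%), against 10.6% of all peaks of the 4 lists. Those 8 peaks include the 4 closest to the lowest fold the lists hold, 3. They are Basp1 region 2 in 2-week replicate 2 (3.01), Tuba1a in 2-week replicate 1 (3.02), Basp1 region 4 in 2-week replicate 1 (3.02) and Basp1 region 1 in 6-week replicate 2 (3.15). Most of the 8 lay in Basp1, whose regions 3 (3.39) and 5 (3.27) in 2-week replicate 2 were also under 3.5. Tubb2b and Cd24a had no such peak. The 2 shares are not matched for tags. Median IP tags of the members ran from 129 (6-week replicate 2) to 1358 (2-week replicate 2) per 10 M, against 18.2 and 15.7 over those lists. The lists hold nothing below 3, so values just outside the threshold cannot be given.

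**Figure D1:**
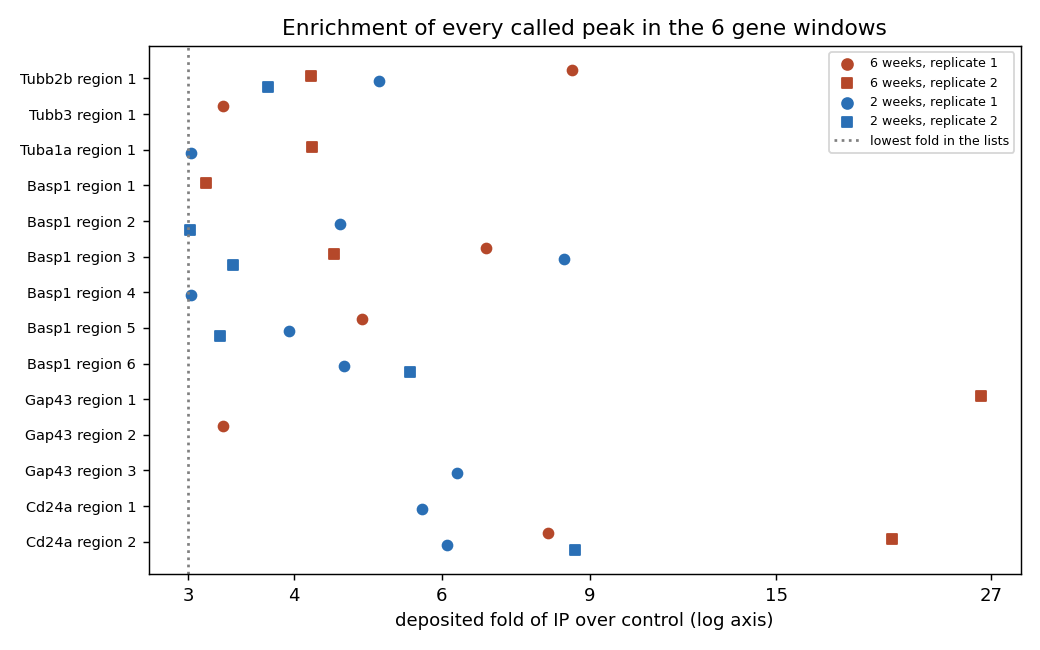
The authors' fold of IP over control (x axis, log scale) for each of the 28 peaks, by region (y axis, numbered along the chromosome within a gene), with 6-week libraries in red and 2-week libraries in blue and replicate 1 as circles and replicate 2 as squares. Most points lie between 3 and 9, and the points above 20 belong to Gap43 region 1 and Cd24a region 2 in 6-week replicate 2, each over 1 control tag.

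Tubb2b encodes a beta-tubulin that is abundant in migrating and newly born neurons, and mutations of the human gene cause malformations of the cortex. Its window on chromosome 13 from 34218000 to 34222600 held 1 region, from 34220235 to 34220351, with 1 peak in every library. The peaks started within 16 bp of each other, where the median spread over all 4577 regions with exactly 1 peak in each list was 32 bp. IP tags stood at 1091 and 416 per 10 M in the 6-week libraries, against 2209 and 1405 per 10 M in the 2-week libraries. Input tags stood at 127 and 99.0 per 10 M at 6 weeks, against 437 and 377 per 10 M at 2 weeks. Both 6-week libraries lay below both 2-week libraries in IP and in input. Over those 4577 regions, this held for 43.2% in IP and 48% in input. The input mean was 113 ± 20.0 tags at 6 weeks against 407 ± 42.9 tags at 2 weeks (SD, n = 2 for each age), 3.60-fold lower at 6 weeks. The authors' fold over control was 8.57 and 4.20 at 6 weeks and 5.05 and 3.73 at 2 weeks, and these ranges overlapped. Within each age replicate 1 had the higher fold, and by counting error alone the replicates were apart: the 95% interval was 7.40 to 9.97 and 3.44 to 5.15 at 6 weeks and 4.75 to 5.37 and 3.42 to 4.07 at 2 weeks (exact Clopper-Pearson, which covers counting error only).

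The 3 regions outside the windows whose input levels in the 4 libraries were nearest to those of Tubb2b, by Euclidean distance of log2(tags per 10 M + 1), lay on chromosome 1 (179378618 to 179378746), chromosome 2 (28085102 to 28085229) and chromosome 5 (37186595 to 37186704). Their distances were 0.79, 0.79 and 0.81. The nearest had 182 and 65.7 input tags per 10 M at 6 weeks and 402 and 388 per 10 M at 2 weeks. Likeness over 4 libraries is a description of level and says nothing of shared control.

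Tuba1a encodes the main alpha-tubulin of developing neurons, also linked to cortical malformation in humans. Its window on chromosome 15 from 98780000 to 98784400 held 1 region, from 98783852 to 98783956, near its high-coordinate end, called in 1 library of each age. In 6-week replicate 2 the peak had 104 IP tags and 24.8 input tags per 10 M and a fold of 4.21. In 2-week replicate 1 it had 576 IP tags and 191 input tags per 10 M and a fold of 3.02. The peaks started 4 bp apart, so the same place was measured at both ages. The input level was 7.70-fold and the IP level 5.53-fold lower in the 6-week library, each from 1 library an age with no replicate. The nearest peak of the other lists lay 35249 bp away in 6-week replicate 1 and 40228 bp away in 2-week replicate 2.

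Tubb3 encodes the beta-tubulin often used to stain neurons from their last division onward. Its window on chromosome 8 from 125935000 to 125946300 held a single weak peak, from 125935451 to 125935551, in 6-week replicate 1, with 27 IP tags and 8 control tags. Its fold was 3.30, and counting error alone allowed 1.46 to 8.41. It began 451 bp inside the low-coordinate edge of a window of more than 11 kb. The rest of the window held no peak in any list, and no peak of the 2-week lists lay closer than 30859 bp to it. Tubulin genes have close relatives with near-identical coding sequence, and how tags that match several places were counted is not given in the sources used here, so the tubulin levels are uncertain to that extent.

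Basp1 encodes an abundant, membrane-bound growth-cone protein that binds acidic phospholipids and is a substrate of protein kinase C. Its window on chromosome 15 from 25292500 to 25345000 held the most peaks, 2 in each 6-week list, and 5 and 4 in the 2-week lists. The 6 regions sat in 2 groups at the ends of the window. Regions 1 to 4 lay from 25293110 to 25294560, regions 5 and 6 from 25343330 to 25344634, and 48770 bp without a peak separated them. RefSeq places Basp1 on the minus strand in GRCm38.p6. If mm9 has the same orientation, the low-coordinate group lies on the side of the gene's 3′ end.

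Basp1 region 3, from 25294113 to 25294235, was the one called in all 4 libraries. It had 1428 and 802 IP tags per 10 M at 6 weeks, against 2762 and 1325 per 10 M at 2 weeks. The IP ranges of the ages overlapped, since 6-week replicate 1 lay above 2-week replicate 2. Input tags stood at 211 and 179 per 10 M at 6 weeks, against 329 and 391 per 10 M at 2 weeks, and did not overlap. Over all 4577 regions with exactly 1 peak in each list, both 6-week inputs lay below both 2-week inputs in 48%. The input mean of 195 ± 22.4 at 6 weeks was 1.85-fold lower than the 360 ± 43.6 at 2 weeks (SD, n = 2 for each age). The fold over control was 6.77 and 4.47 at 6 weeks and 8.39 and 3.39 at 2 weeks, so the replicates at 2 weeks differed by more than the ages did. Both 6-week peaks started at 25294135 or 25294134, and the 2-week peaks at 25294117 and 25294113, so the 6-week peaks lay 17 to 22 bp higher, and tags were counted in each library's own interval.

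The neighbours of region 3 held large numbers of tags at 2 weeks. Region 2, from 25293954 to 25294062, was called in both 2-week lists, with 1633 and 1392 IP tags per 10 M and folds of 4.54 and 3.01, and in neither 6-week list. It lay 51 bp from region 3, and the nearest 6-week peaks, which are those of region 3, began 73 and 72 bp from it. Region 4, from 25294460 to 25294560, was called in 2-week replicate 1 alone. With 3260 IP and 1081 control tags per 10 M it was the most heavily tagged of the 28 peaks and ranked 16 of 39259 in its list by IP tags and 4 by control tags, at a fold of 3.02. Region 1, from 25293110 to 25293210, was called in 6-week replicate 2 alone, with 153 IP and 48.7 control tags per 10 M and a fold of 3.15.

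At the other end, region 5, from 25343330 to 25343432, was called in 6-week replicate 1 and in both 2-week libraries, with peak starts within 2 bp. It had 748 IP and 155 input tags per 10 M in the 6-week library, against 1529 and 1723 IP tags and 387 and 528 input tags per 10 M in the 2-week libraries. The 6-week value lay below both 2-week values in IP and in input, and its fold of 4.82 lay above their 3.95 and 3.27. In 6-week replicate 2 the nearest peak was 49096 bp away. Region 6, from 25344525 to 25344634, was called in both 2-week lists and in neither 6-week list. It held only 11 and 15 IP tags over 3 and 2 control tags. Its folds were 4.59 and 5.50, with counting intervals of 1.21 to 25.6 and 1.28 to 49.5.

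**Figure D2:**
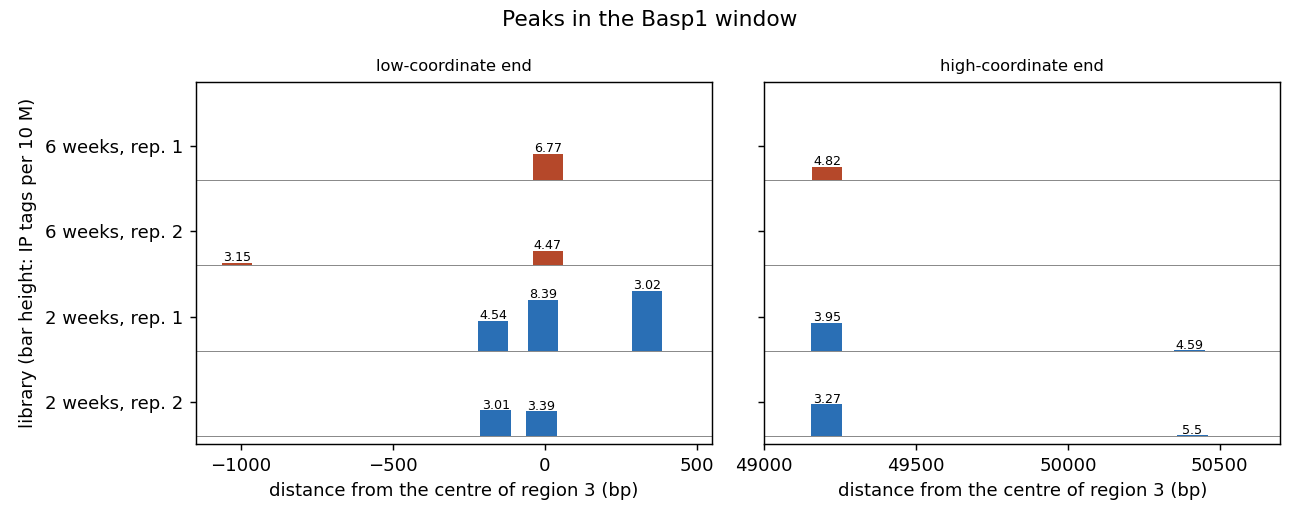
Peaks of the Basp1 window by library, placed by distance from the centre of region 3 (x axis, bp), at the low-coordinate end (left panel) and the high-coordinate end (right panel), with bar height proportional to IP tags per 10 M and the authors' fold printed above each bar. The 6-week libraries have 2 peaks each, the 2-week libraries 5 and 4, and region 3 at distance 0 is the place called in all 4.

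Summed over the Basp1 window, peaks held 2177 and 955 IP tags per 10 M at 6 weeks over 200 bp of peak in each library, against 9187 and 4447 per 10 M at 2 weeks over 500 and 400 bp. Per peak the means were 1088 and 478 at 6 weeks and 1837 and 1112 at 2 weeks. Such sums move with how many peaks were called, and the single-region values above do not.

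Gap43 encodes a neuron-enriched growth-cone protein that binds calmodulin and, like BASP1, is phosphorylated by protein kinase C and rises during axon growth and regeneration. Its window on chromosome 16 from 42248000 to 42341500 held 3 regions, each called in a single library, so no place in it could be compared between the ages. Region 1, from 42248630 to 42248730, was called in 6-week replicate 2 with 37 IP tags over 1 control tag. Its fold of 26.25 was the highest of the 28 peaks, and its counting interval reached from 4.43 to 1064. Region 2, from 42340545 to 42340645 at the other end of the window, was called in 6-week replicate 1 with 145 IP and 43 control tags and a fold of 3.30. Region 3, from 42340885 to 42340985, lay 240 bp from it and was called in 2-week replicate 1 with 10 IP and 2 control tags and a fold of 6.25 (counting interval 1.33 to 58.7). None of the 3 stood in the top 15% of its list by IP tags.

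Cd24a encodes a small, heavily glycosylated protein anchored in the membrane of immature neurons, and also of ependymal and blood cells. The part of those other cells in its level was not tested. Its window on chromosome 10 from 43298000 to 43305000 held 2 regions. Region 2, from 43302772 to 43302887, was called in all 4 libraries with starts within 15 bp. IP tags stood at 25.4 and 17.6 per 10 M at 6 weeks, against 189 and 175 per 10 M at 2 weeks. Input tags stood at 3.17 and 0.854 per 10 M at 6 weeks, against 31.0 and 20.2 per 10 M at 2 weeks. Both 6-week libraries lay below both 2-week libraries in IP and in input. Of all 4577 regions with exactly 1 peak in each list, 43.2% had this order in IP and 48% in input. The IP mean was 21.5 ± 5.56 tags at 6 weeks against 182 ± 10.2 tags at 2 weeks (SD, n = 2 for each age), 8.46-fold lower at 6 weeks. The input values rest on 5 and 1 tags in the 6-week libraries and on 91 and 34 tags in the 2-week ones. By counting error alone the 6-week input levels could lie between 1.03 and 7.39 and between 0.0216 and 4.76 per 10 M, both below the 14.0 per 10 M that was the lowest bound at 2 weeks (exact Poisson, 95%).

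The fold over control in Cd24a region 2 was 8.03 and 20.57 at 6 weeks and 6.09 and 8.65 at 2 weeks, and the ranges overlapped. The value of 20.57 stands over 1 control tag, with a counting interval of 3.41 to 840. Region 1, from 43298982 to 43299082, was called in 2-week replicate 1 alone, with 109 IP and 24 control tags and a fold of 5.68. It lay 3690 bp from region 2.

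**Figure D3:**
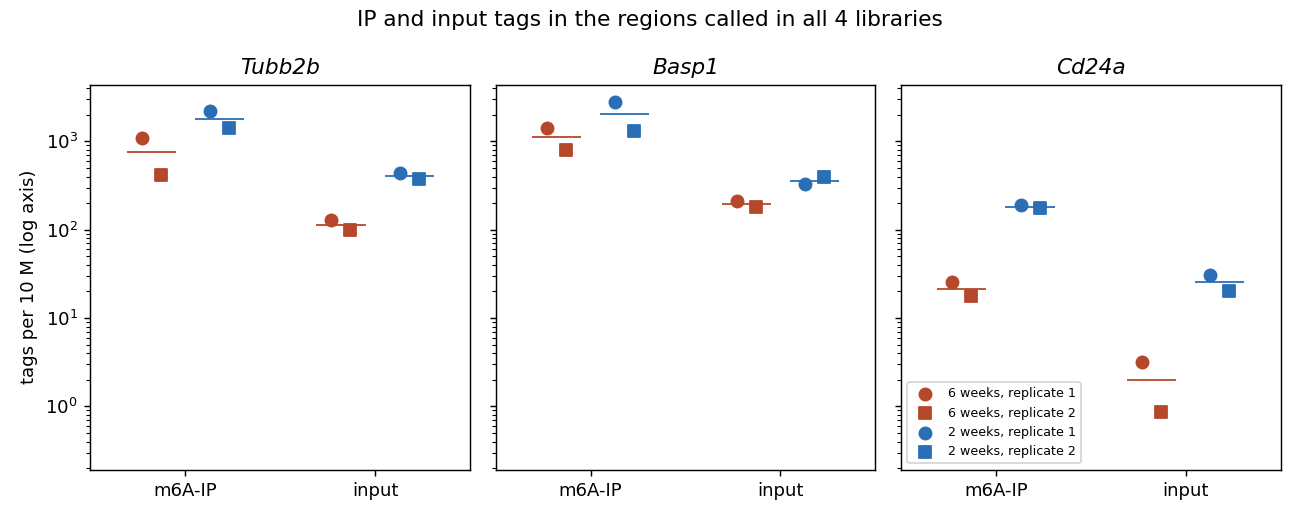
IP and input tags per 10 M (y axis, log scale) in the 3 regions called in all libraries, with 6-week libraries in red left of 2-week libraries in blue, replicate 1 as circles, replicate 2 as squares and lines at the mean of each age. The ages are apart in Tubb2b and Cd24a in both fractions and in Basp1 in input only, where IP values of 802 to 2762 overlap. Of all 4577 regions with exactly 1 peak in each list, 48% have both 6-week libraries below both 2-week libraries in input and 43.2% in IP.

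Set side by side, the input level at 6 weeks was lower by 1.85-fold in Basp1 region 3, 3.60-fold in Tubb2b and 12.7-fold in Cd24a region 2, the last resting on few tags. In all 3 regions both 6-week inputs lay below both 2-week inputs per 10 M tags. That was also so for 48% of the 4577 jointly called regions, so it is a common pattern in this table. For IP it was so in 2 of the 3 regions, against 43.2% of all, and for the ratio of IP to input the ages overlapped in all 3, where 9.96% of all regions had both 6-week ratios below both 2-week ratios and 16.5% had them above. Averaged over the libraries, Tubb2b and Basp1 region 3 ranked 24 and 22 of 4577 by input and 40 and 26 by IP, and Cd24a region 2 ranked 1788 and 1534.

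The same regions were placed within a fit of all 4577 regions with exactly 1 peak in each list. The fit used edgeR's quasi-likelihood method, with libraries scaled so that the typical region shows no change. The median log2 change, 6 over 2 weeks, was -0.02 in input, and the middle of the table, between its quartiles, ran from -0.54 to 0.46. Input changed by a log2 of -3.06 ± 0.59 (SE) in Cd24a, -1.33 ± 0.32 in Tubb2b and -0.35 ± 0.31 in Basp1. At or below these values stood 0.765%, 6.69% and 34.0% of all regions. In that fit Cd24a and Tubb2b were 2 of the 49 regions called lower in input at 6 weeks (1.07% of those tested), and nothing is read from this, since the genes were picked with that contrast known. The Tubb2b call was lost without 6-week replicate 2 (log2 change -1.24) and without 2-week replicate 1 (-1.13) or 2 (-1.52), and that of Cd24a without 2-week replicate 1 (-2.60). The Cd24a value was -4.25 without 6-week replicate 1, which leaves a single 6-week tag, and DESeq2 gave it no adjusted p. With total tags in place of this scaling the median region moved to -0.53, and the 3 values to -3.55, -1.84 and -0.88, with the same order.

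IP tags changed by a log2 of -2.68 ± 0.40 in Cd24a, the lowest of all regions, -0.96 ± 0.47 in Tubb2b and -0.53 ± 0.49 in Basp1, where the median over all regions was 0.03. Cd24a was 1 of the 11 regions called lower in IP (0.24%), and DESeq2 called 44 lower. Nothing is read from the calls or ranks of these genes in IP either, since they were picked with that contrast known. Cd24a was not the lowest without 6-week replicate 1, 6-week replicate 2 or 2-week replicate 1. Under total tags, which moved the median to -0.37, edgeR called 0 regions with 736 at an unadjusted p under 0.05, while Cd24a stood at -3.08 ± 0.50 and remained the lowest of all. Basp1 turned to 0.19 without 2-week replicate 1, so its direction in IP rests on that library. Tubb2b, not called with all libraries, passed the threshold without 6-week replicate 1 (-1.40), and stood at -0.63 without 6-week replicate 2, -0.51 without 2-week replicate 1 and -1.31 without 2-week replicate 2, not called in these 3 settings.

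Enrichment, the ratio of IP to input, changed by 0.37 ± 0.72 in Cd24a, 0.37 ± 0.39 in Tubb2b and -0.06 ± 0.40 in Basp1, with a median of 0.02 over all regions. With all libraries each of the 3 changes lay within 1 SE of 0. Leaving out 6-week replicate 1 gave 0.09 ± 0.34 in Tubb2b, and leaving out 6-week replicate 2 gave 0.70 ± 0.33, not called. With all libraries, edgeR called 0 of the 4577 regions (0%) while 129 had an unadjusted p under 0.05. DESeq2 likewise called 0, where 28 had such a p. Every region fitted had a fold of at least 3 in every list. A place that lacked a peak in any list was not fitted, so peaks gained or lost with age are not covered. Regions with more than 1 peak in a list were left out too. Of the 10203 regions called in all 4 lists, 4577 were fitted. A miss of the threshold also does not show equal enrichment. On simulated tags for these regions, this comparison recovered 46% of regions raised by a log2 of 2 and 8% of those raised by 1. The simulation used a single fixed spread for all regions and made no selection on fold.

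**Figure D4:**
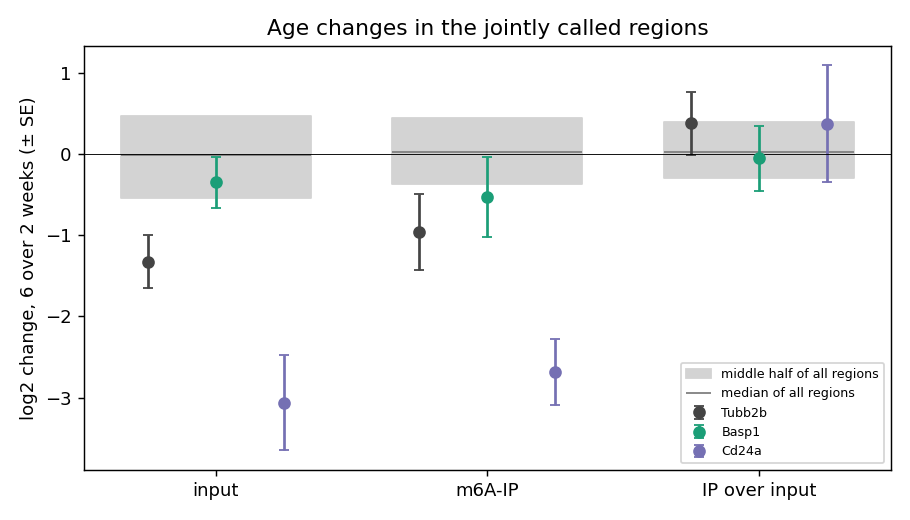
Log2 change, 6 over 2 weeks (y axis, points with SE) of input, m6A-IP and their ratio in the 3 regions called in all libraries, over grey bands that span the quartiles of all 4577 regions. Input and IP of Cd24a and Tubb2b lie below the bands, Basp1 lies inside the input band and just below the IP band, and the 3 ratios lie inside theirs.

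Regions called at one age only were also counted in the windows. None in the 6 windows was called at 6 weeks only, meaning in both 6-week lists and in neither 2-week list, and Basp1 regions 2 and 6 were called at 2 weeks only. That is 0 of 14 regions at 6 weeks only, against 1.92% of all merged regions, and 2 of 14 at 2 weeks only, against 6.41%. No test was run, since 2 calls against 2 cannot reach a threshold of 0.05. Region 2 is joined to region 3, called in all 4 libraries, when peaks within 200 bp are merged, which leaves 1 region at 2 weeks only, and region 6 rests on 11 and 15 IP tags.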

How the data were processed

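Per the file headers, peaks carry HOMER's column names, and each library has a list of its own, so replicates were not pooled. Named in the submitters' processing notes, with no role or order, are mm9, HOMER, Cufflinks 2.2.1, TopHat2 2.1.1 and 2.0.13, and Bowtie2 2.2.3. Caller options were not given in the sources used here.

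Whole counts of IP tags, with a scaled signal for control tags, are deposited for 2-week replicate 1. For the other libraries the deposited IP tags are a scaled signal and the control tags are deposited like estimated counts, with 0.5 where there is no tag, set to 0 here. Scaled columns were divided by the value of 1 tag, and all were whole within 0.2 tag. Depth assumes that the deposited normalized signal is per 10000000 tags, HOMER's default. Score, fold ratio and p-value are the authors' and describe peaks within a list. A further column of the authors, a fraction of tags near the peak centre, was left out.

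Regions, tags per 10 M and counting intervals used Python 3.11.15, pandas 2.3.3, numpy 2.4.6 and scipy 1.17.1. Regions with exactly 1 peak in each list were fitted with edgeR 4.0.16 (R 4.3.3), using TMM scaling and Benjamini-Hochberg adjustment over all 4577 at 0.05, with DESeq2 1.42.0 as an alternative. Enrichment was tested as an interaction of fraction and age beside a term for each sample. The SE of an edgeR log2 change was derived from the test. It is the absolute change divided by the square root of the quasi-likelihood F statistic. The fits were tested on simulated tags, 50 regions per size. The members and lists were chosen with earlier results of these data known. All regions of the 6 genes are described.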

Additional observations from a re-analysis of the deposited data

How the results depend on the processing

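Age changes of the 3 jointly called regions in input kept their direction in every setting run. For IP, Basp1 ranged from -1.01 to 0.19 with 1 library left out, the positive value without 2-week replicate 1. Tubb2b ranged from -1.40 (without 6-week replicate 1) to -0.51 (without 2-week replicate 1). Only effect sizes are given, since the genes were picked with this contrast known. For enrichment, Basp1 was 0.046 with total tags and ranged from -0.70 to 0.59 with 1 library left out, Cd24a ranged from -0.093 (without 6-week replicate 2) to 1.67, and Tubb2b from 0.092 (without 6-week replicate 1) to 0.70 (without 6-week replicate 2). The cause was not tested.

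Input calls over all regions numbered 55 higher and 49 lower. Total tags gave 21 higher and 370 lower, DESeq2 22 higher and 13 lower with no adjusted p in 3106 regions, and filterByExpr, which kept 3159 regions, 36 higher and 23 lower. With 1 library left out, higher calls ran from 6 to 84 and lower calls from 0 to 72. IP calls numbered 39 higher and 11 lower, against 60 and 44 by DESeq2 and 0 and 0 by edgeR under total tags (736 at an unadjusted p under 0.05). With 1 library left out they ran from 3 to 402 higher and 1 to 325 lower. Enrichment calls were 0 throughout except without 6-week replicate 2, so they ran from 0 to 20 higher and 0 to 1 lower with 1 library left out.

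Same-numbered libraries did not deviate together (correlation over regions 0.05 for input, 0.03 for IP, 0.02 for their ratio). Whether they share more than a number was not tested. With the number as a replicate block, input calls were 57 and 49, IP calls 112 and 78, and enrichment calls 0.

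At 8-fold or more the windows held 4 peaks at 6 weeks and 2 at 2 weeks, and 0 regions at 2 weeks only. Joining peaks within 200 bp left 1 region at 2 weeks only. When 1 library was left out, between 0 and 2 regions of the windows were called at 6 weeks alone and between 2 and 5 at 2 weeks alone, because a lone list needs no second call and a dropped list no longer counts against the other age, and the windows held 6 to 12 peaks of 6-week lists and 6 to 16 of 2-week lists, because fewer lists were counted. Lists of equal length changed no count in the windows by over 1.5 times. Values over 1 to 3 control tags (Gap43 regions 1 and 3, Basp1 region 6 and Cd24a region 2 in 6-week replicate 2) have wide counting intervals. The part of depth in this was not tested.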
